A study of Homo sapiens with 20 samples.

Results

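The genes described here are 9 transcription factors of the interferon regulatory factor (IRF) and signal transducer and activator of transcription (STAT) families, IRF1, IRF2, IRF5, IRF7, IRF9, STAT2, STAT3, STAT5A and STAT5B. They were taken by name from the 57736 genes of the drug tables and the 53150 genes of the excision tables, with earlier results of these data known. All 9 were found in all 20 libraries. RNA was measured by stranded total RNA sequencing in K562, a human erythroleukemia line that carries the BCR-ABL1 fusion kinase. In the drug arm, cells received the EZH2 inhibitor GSK343 (5 uM), the REST inhibitor X5050 (100 uM) or the vehicle DMSO for 72 h, or both drugs at those doses for 8, 24 or 72 h. In the excision arm, CRISPR removed silencer 2 and silencer 1 together (DKO), silencer 1 (S1KO) or silencer 2 (S2KO), and the control cells carried an empty vector (EV). Each of the 10 groups had 2 libraries, which the study's design calls biological replicates. The sources used here do not say whether an excised line is a clone or a pool of cells, and no untreated control was taken at 8 or 24 h, so time in culture and treatment cannot be told apart in comparisons of those times with DMSO.

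STAT proteins wait in the cytoplasm until a cytokine receptor and its Janus kinase (JAK) phosphorylate them, after which they pair, enter the nucleus and bind the GAS element. STAT2 and IRF9 are parts of ISGF3, the complex through which type I interferon switches on its target genes at the ISRE element. IRF1, IRF2, IRF5 and IRF7 bind ISRE-like sequence themselves: IRF1 is an activator and itself a known STAT target, IRF2 mostly opposes it, IRF5 and IRF7 relay signals of innate immune sensors, and IRF7 drives type I interferon genes. In K562, STAT5A and STAT5B are known to be phosphorylated constitutively downstream of BCR-ABL1. These data measure RNA and give neither the phosphorylation nor the location of any of these proteins.

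Promoter sequence is shown for 4 of the genes, 2 with a GAS match and 2 STAT genes that changed with the drugs and have none, because GAS is the element that STAT proteins bind. The sequences are the 250 bases before the start of each gene in RefSeq on GRCh38.p14, written 5′ to 3′ in the direction of the gene, with GAS matches in capitals.
IRF1, chr5:132490774-132491023, minus strand: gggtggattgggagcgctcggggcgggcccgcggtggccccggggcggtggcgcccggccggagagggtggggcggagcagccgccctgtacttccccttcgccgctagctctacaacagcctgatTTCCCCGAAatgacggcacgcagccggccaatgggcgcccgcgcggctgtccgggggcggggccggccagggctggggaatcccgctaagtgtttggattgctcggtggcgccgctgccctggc
IRF9, chr14:24161015-24161264, plus strand: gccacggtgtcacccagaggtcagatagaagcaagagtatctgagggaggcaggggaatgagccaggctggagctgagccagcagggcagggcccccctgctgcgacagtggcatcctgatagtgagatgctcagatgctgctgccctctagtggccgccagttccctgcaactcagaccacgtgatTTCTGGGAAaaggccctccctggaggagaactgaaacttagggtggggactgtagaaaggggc
STAT3, chr17:42388443-42388692, minus strand: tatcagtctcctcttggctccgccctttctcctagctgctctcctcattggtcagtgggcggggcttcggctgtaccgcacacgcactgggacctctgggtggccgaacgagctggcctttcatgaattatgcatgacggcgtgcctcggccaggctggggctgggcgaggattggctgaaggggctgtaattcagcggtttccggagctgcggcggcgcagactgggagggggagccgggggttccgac
STAT5B, chr17:42276392-42276641, minus strand: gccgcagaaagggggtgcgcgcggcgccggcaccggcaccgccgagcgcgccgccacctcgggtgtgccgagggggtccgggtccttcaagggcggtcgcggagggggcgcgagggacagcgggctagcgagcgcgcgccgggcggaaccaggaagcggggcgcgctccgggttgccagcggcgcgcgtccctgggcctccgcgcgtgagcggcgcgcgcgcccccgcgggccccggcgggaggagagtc
The search was for GAS as TTCNNNGAA, which is its own reverse complement, and for ISRE as GAAA followed, after any 2 bases, by GAAA, on both strands. IRF1 holds TTCCCCGAA from 124 to 116 bases before its start, and IRF9 holds TTCTGGGAA from 63 to 55 bases before its start. Of 34943 RefSeq promoters of this length, 6.56% hold the GAS pattern and 3.02% the ISRE pattern. No GAS match was found in the windows of STAT2, STAT3 and STAT5B, the 3 windows of STAT5A or the 4 of IRF5, and no ISRE match in any of these windows or those of IRF1 and IRF9. RefSeq entries were matched for 7 of the 9 genes, all but IRF2 and IRF7.

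The drug libraries held 22925617 to 38177320 gene counts and the excision libraries 55913313 to 98507571 estimated counts over genes. Levels are given as CPM, counts scaled to library size, and a value after ± is a standard error for a log2 fold change and a standard deviation (SD, n = 2) for a level. A gene was called where edgeR's quasi-likelihood test gave an adjusted p under 0.05 over all genes tested, which were 19224 with the drugs and 21284 with the excisions. All 12 markers of K562 and its erythroid lineage on a fixed list, GATA1, TAL1 and the fetal globins HBG1 and HBG2 among them, were detected in every group. Their summed level was 1769 to 6139 CPM in the drug libraries and 2840 to 20093 CPM in the excision libraries. The summed level of 10 myeloid markers was 12.9 to 34.5 CPM with the drugs and 21.8 to 91.4 CPM with the excisions, that of 9 lymphoid markers 42.2 to 212 CPM and 58.4 to 144 CPM, and that of 9 fibroblast and epithelial markers 402 to 1116 CPM and 517 to 717 CPM. Of the lymphoid markers MS4A1, of B cells, was the 1 at 0 in every group. Both DMSO libraries differed from each other more than the 2 libraries of both drugs at 8, 24 or 72 h did from each other, with a mean chi-square per degree of freedom of 35.8 over genes against 7.17 to 14.3. The plot of drug levels shows each of the 9 genes in these 12 libraries.

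**Figure D1:**
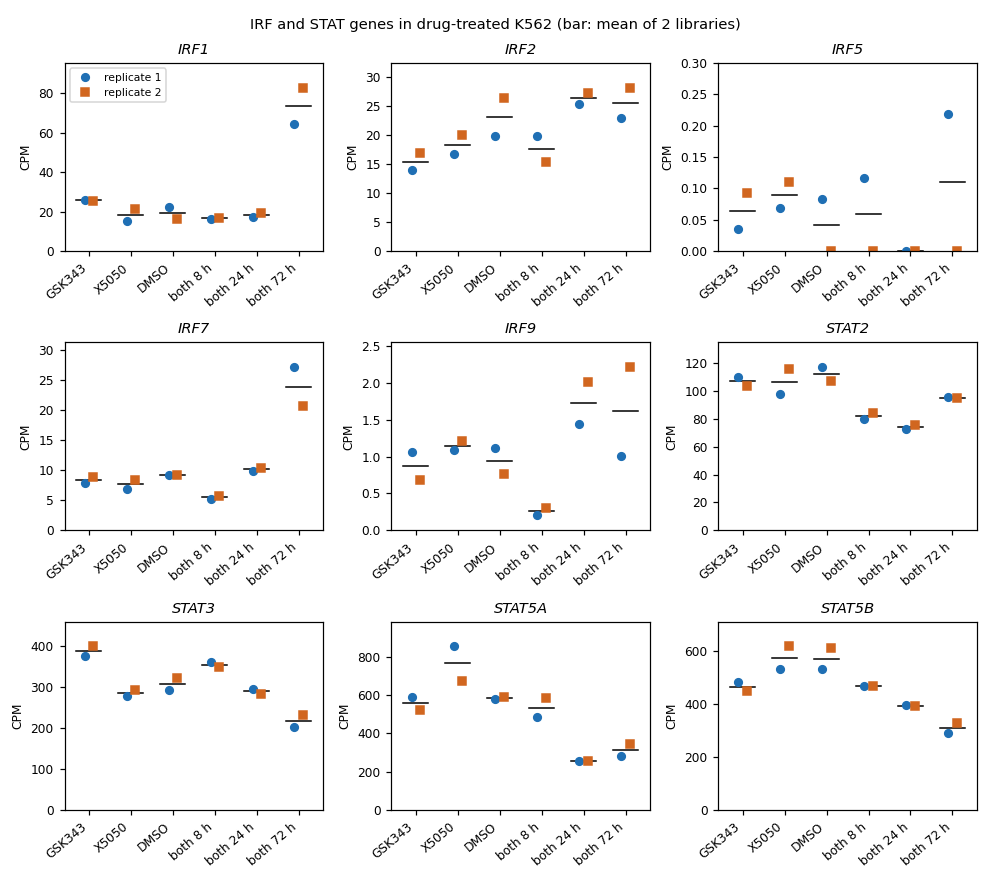
Levels of the 9 genes in CPM (y axes, each from 0) in the 12 drug libraries, with GSK343, X5050 and DMSO at 72 h followed by both drugs at 8, 24 and 72 h; points are single libraries and bars the mean of 2. IRF1 and IRF7 stand out at 72 h of both drugs, where IRF1 lay at 64.6 and 82.9 CPM, and STAT5A was lowest at 24 h, at 253 and 255 CPM.

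The 9 genes spanned a wide range of abundance. Per unit of length, which only the excision tables allow, STAT5A led in EV cells with 181 and 96.5 TPM, the length-scaled share of transcripts, summed over its transcripts. It was followed by STAT5B with 63.4 and 94.7 TPM, STAT3 with 42.4 and 40.8 TPM and STAT2 with 21.6 and 33.5 TPM. IRF1 followed with 4.98 and 7.79 TPM, IRF9 with 4.71 and 7.95 TPM, IRF2 with 5.07 and 6.29 TPM and IRF7 with 1.47 and 2.90 TPM. The libraries of IRF1, IRF9 and IRF2 overlapped in TPM, so their order is not separated by the spread, and the STAT5A and STAT5B levels were separated by less than the gap between the 2 STAT5A libraries. IRF5 was near silent, with 0 to 5 counts in every library of either arm. It did not pass the filter on low counts and was not tested, so 8 of the 9 genes were.

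Both drugs together at 72 h moved the family in both directions. IRF1 and IRF7 were higher than in DMSO and STAT3, STAT5A and STAT5B were lower, which is 5 of the 8 tested genes, where 36.4% of all tested genes were called in either direction. By direction, 19.2% of all tested genes were higher and 17.3% lower. IRF2, IRF9 and STAT2 did not pass the test.

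IRF1, the activator, had 64.6 and 82.9 CPM with both drugs for 72 h, against 22.1 and 16.2 CPM in DMSO. The treated libraries lay well above the DMSO libraries, a log2 fold change of 1.94 ± 0.18 (adjusted p = 6.72e-07, edgeR). IRF7, the driver of type I interferon genes, had 27.2 and 20.6 CPM with both drugs, against 9.25 and 9.20 CPM in DMSO. That is a log2 fold change of 1.37 ± 0.18 (adjusted p = 2.34e-05, edgeR), with no overlap between the groups. IRF7 has the highest GC content of the 9 genes, 66.8% in its longest transcript against a median of 46.8% over all genes, and with the trend of fold change on GC content removed its change was 0.84 and stayed called. That correction also moved the median of all tested genes, to -0.14 for both drugs at 72 h and -0.15 for GSK343, against 0.01 and 0.00 without it. The split of called genes moved with it at 72 h, to 2849 higher and 4508 lower, where without it there were 3688 higher and 3317 lower.

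The 2 STAT5 genes, whose proteins carry signals of erythropoietin and many other cytokines, fell by almost the same amount. STAT5A had 283 and 347 CPM with both drugs for 72 h, against 582 and 592 CPM in DMSO, a log2 fold change of -0.90 ± 0.14 (adjusted p = 9.84e-05, edgeR). STAT5B had 291 and 328 CPM with both drugs, against 532 and 611 CPM in DMSO, a change of -0.89 ± 0.11 (adjusted p = 1.99e-05, edgeR). In both genes every treated library lay below every DMSO library. Their exons share 687 of their 31-base words, 11.8% of those of STAT5A and 10.6% of those of STAT5B. A read that fits both genes equally well is counted for neither in the drug tables. In the excision tables such reads are divided between transcripts. The part of such reads in the values was not tested.

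STAT3, which carries signals of the IL-6 family, had 201 and 232 CPM with both drugs, against 291 and 320 CPM in DMSO. The groups did not overlap, and the fall was smaller, -0.50 ± 0.11 (adjusted p = 0.00183, edgeR). STAT3, STAT5A and STAT5B lie next to each other on chromosome 17, and IRF1 is on chromosome 5 and IRF7 on chromosome 11.

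STAT2, the interferon STAT, had 95.9 and 94.6 CPM with both drugs and 117 and 107 CPM in DMSO, a change of -0.24 ± 0.11 that was not called (adjusted p = 0.11, edgeR). With the GC trend removed STAT2 was called, at -0.38 (adjusted p = 0.0111, edgeR), beside the all-gene median of -0.14 under that correction. IRF2, the opponent of IRF1, had 23.0 and 28.2 CPM with both drugs and 19.9 and 26.4 CPM in DMSO, overlapping ranges with a change of 0.15 ± 0.18 (adjusted p = 0.565, edgeR). IRF9, the DNA-binding partner in ISGF3, had 1.01 and 2.21 CPM with both drugs and 1.12 and 0.760 CPM in DMSO, a change of 0.79 ± 0.43 (adjusted p = 0.166, edgeR). Its counts were 23 and 58 with both drugs and 27 and 19 in DMSO. In GENCODE 29 the gene AL136295.5 covers 48.4% of the exonic bases of IRF9 on the same strand. Drug-arm reads in that stretch that fit both genes count as ambiguous and go to neither. The level of IRF9 in the drug arm is therefore uncertain and can be too low, by an amount that was not tested.

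**Figure D2:**
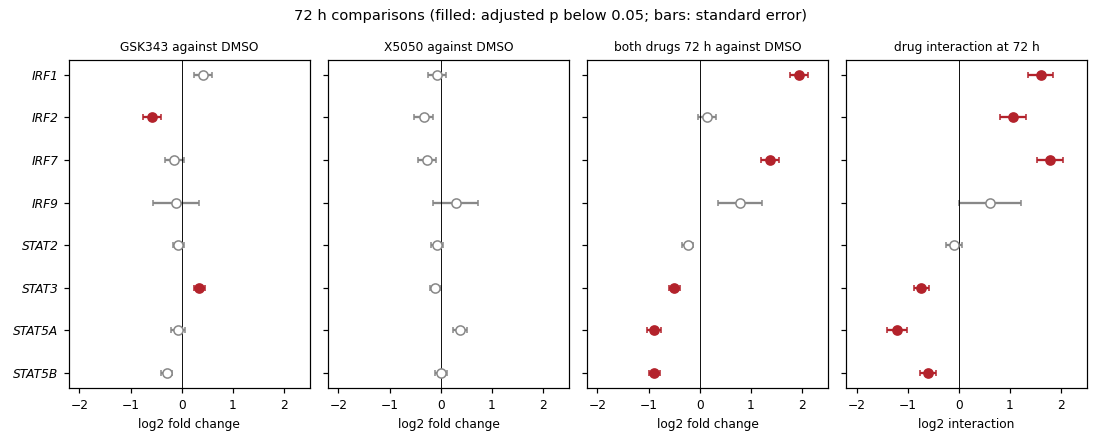
Log2 fold changes (x axes) of the 8 tested genes (rows) for GSK343, X5050 and both drugs at 72 h, each against DMSO, and in the last panel the drug interaction, the change with both drugs minus the changes with each drug alone; bars are standard errors and filled points have an adjusted p under 0.05 (edgeR). Changes with the single drugs stayed within -0.58 and 0.42, while IRF1 reached 1.94 and STAT5A -0.90 with both drugs.

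Few of these genes were called with a single drug. With GSK343, IRF2 was lower and STAT3 higher, 2 of 8 tested genes, where 12.4% of all tested genes were called, 9.12% higher and 3.31% lower. IRF2 had 13.9 and 16.9 CPM with GSK343, against 19.9 and 26.4 CPM in DMSO, and fell by 0.58 on the log2 scale (SE 0.18, adjusted p = 0.0453, edgeR). With the GC trend removed the called genes were 1422 higher and 2410 lower, where without it they were 1754 higher and 636 lower. STAT3 had 375 and 398 CPM with GSK343, against 291 and 320 CPM in DMSO, a change of 0.34 ± 0.11 (adjusted p = 0.0485, edgeR). Both calls sat at the edge of the threshold. The adjusted p of IRF2 ran to 0.328 (without DMSO replicate 2) and that of STAT3 to 0.456 (with a replicate block and the GC trend removed), and only 2 of 12 alternatives kept the call of STAT3. IRF2 was not called without GSK343 replicate 1 (adjusted p = 0.241, edgeR), GSK343 replicate 2 (adjusted p = 0.068, edgeR) or DMSO replicate 2, or with only the groups compared (adjusted p = 0.143, edgeR). STAT3 was not called without GSK343 replicate 1 (adjusted p = 0.132, edgeR), GSK343 replicate 2 (adjusted p = 0.349, edgeR) or DMSO replicate 1 (adjusted p = 0.105, edgeR). STAT5B, not called here, was called lower without DMSO replicate 1 (-0.40, adjusted p = 0.0232, edgeR) and with the GC trend removed (-0.51, adjusted p = 0.0107, edgeR).

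IRF1 had 25.8 and 25.5 CPM with GSK343, against 22.1 and 16.2 CPM in DMSO, a change of 0.42 ± 0.18 that was not called (adjusted p = 0.142, edgeR). It was called without DMSO replicate 1 (0.65, adjusted p = 0.0235, edgeR). STAT5B had 482 and 449 CPM with GSK343, against 532 and 611 CPM in DMSO, -0.30 ± 0.11 (adjusted p = 0.102, edgeR). It was called with the GC trend removed (-0.51, adjusted p = 0.0107, edgeR, beside an all-gene median of -0.15) and without DMSO replicate 1 (-0.40, adjusted p = 0.0232, edgeR). IRF7, IRF9, STAT2 and STAT5A had log2 fold changes of -0.15 to -0.07 with GSK343, none of them called.

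With X5050 none of the 8 genes was called by edgeR, where 12.6% of all tested genes were (5.34% higher and 7.23% lower), and 1, STAT5A, had an unadjusted p under 0.05. STAT5A had 855 and 676 CPM with X5050, against 582 and 592 CPM in DMSO, a change of 0.38 ± 0.14 (adjusted p = 0.0783, edgeR). DESeq2 called that 1 gene (0.42, adjusted p = 0.0315), as did edgeR with no filter (adjusted p = 0.0112) and without X5050 replicate 2 (0.60, adjusted p = 0.0156). The other 7 had log2 fold changes of -0.33 to 0.29. IRF1 had 15.4 and 21.2 CPM with X5050, within the range of the DMSO libraries but for 1, and IRF7 had 6.95 and 8.37 CPM with X5050, just below its DMSO libraries.

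The change with both drugs at 72 h could be set against the sum of the changes with each drug alone. This interaction was called for 6 of the 8 genes, 3 higher and 3 lower, where 18.8% of all tested genes were called, 9.75% higher and 9.04% lower. IRF7 exceeded the sum by 1.79 ± 0.26 on the log2 scale (adjusted p = 0.00027, edgeR) and IRF1 by 1.60 ± 0.25 (adjusted p = 0.000484, edgeR). STAT5A lay below it, with -1.20 ± 0.19 (adjusted p = 0.00061, edgeR), as did STAT3, with -0.73 ± 0.15 (adjusted p = 0.00357, edgeR). STAT5B had -0.60 ± 0.16 (adjusted p = 0.0164, edgeR), and its call was lost without replicate 1 of both drugs at 72 h (adjusted p = 0.0859, edgeR). IRF2 had 1.06 ± 0.26 (adjusted p = 0.00892, edgeR), although with both drugs its level was close to that in DMSO. Both of its single-drug means lay below DMSO, but the X5050 change was not called (-0.33 ± 0.18, adjusted p = 0.257, edgeR) and its libraries overlapped those of DMSO. The IRF2 interaction was 0.87 without GSK343 replicate 1, and its call was lost.

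Set directly against GSK343 alone, both drugs at 72 h gave 6 calls of 8, where 39.4% of all tested genes were called, 18.9% higher and 20.5% lower. IRF1 (1.53 ± 0.17), IRF7 (1.52 ± 0.18) and IRF2 (0.73 ± 0.18) were higher, and STAT3 (-0.84 ± 0.11), STAT5A (-0.82 ± 0.14) and STAT5B (-0.59 ± 0.11) lower. IRF2 was not called without replicate 2 of both drugs at 72 h (adjusted p = 0.0551, edgeR) or without GSK343 replicate 1 (adjusted p = 0.0605, edgeR), and IRF9 was called without replicate 1 of both drugs at 72 h (1.35, adjusted p = 0.0355, edgeR). Against X5050 alone there were 5 calls of 8, where 30.3% of all tested genes were called, 17.5% higher and 12.8% lower (3360 and 2456 genes, and 2304 and 4134 with the GC trend removed). IRF1 (2.01 ± 0.18) and IRF7 (1.64 ± 0.18) were higher with both drugs and STAT5A (-1.28 ± 0.14), STAT5B (-0.90 ± 0.11) and STAT3 (-0.39 ± 0.11) lower, and STAT3 was not called without replicate 1 of both drugs at 72 h (adjusted p = 0.149, edgeR). IRF2 just missed the threshold against X5050 (0.48 ± 0.18, adjusted p = 0.0546, edgeR). With the GC trend removed STAT2 was called lower than with X5050 (-0.39, adjusted p = 0.0115, edgeR), beside an all-gene median of -0.13. These comparisons share the libraries of both drugs at 72 h with the comparison with DMSO.

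Over the time course STAT5A and STAT5B were called lower than in DMSO at 24 h, when IRF1 was not yet called higher. The DMSO libraries were of 72 h. Between 8 and 24 h of both drugs STAT5A fell, and STAT5B was not called (-0.25 ± 0.11, adjusted p = 0.097, edgeR). With only the groups compared STAT5B was called there (adjusted p = 0.00315, edgeR). At 8 h of both drugs IRF7, IRF9 and STAT2 were lower than in DMSO, 3 of 8, where 43% of all tested genes were called, 21.8% higher and 21.2% lower. STAT2 had 79.7 and 83.9 CPM at 8 h, against 117 and 107 CPM in DMSO, -0.45 ± 0.11 (adjusted p = 0.00347, edgeR). IRF9 had 7 and 12 counts at 8 h, against 27 and 19 counts in DMSO, -1.84 ± 0.50 (adjusted p = 0.00732, edgeR). IRF7 had 5.27 and 5.66 CPM at 8 h, against 9.25 and 9.20 CPM in DMSO, -0.75 ± 0.18 (adjusted p = 0.00363, edgeR).

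These calls at 8 h were less firm than those at 72 h. With the GC trend removed IRF7 differed from DMSO by -0.10 (adjusted p = 0.709, edgeR). Without replicate 1 of 8 h, IRF9 (adjusted p = 0.0655, edgeR) and STAT2 (adjusted p = 0.0579, edgeR) were not called, and IRF9 was not called without DMSO replicate 1 either (adjusted p = 0.0552, edgeR). IRF1 had 16.1 and 17.0 CPM at 8 h, and STAT5A had 486 and 584 CPM, and neither was called. STAT5B had 469 and 469 CPM at 8 h, below both DMSO libraries, -0.29 ± 0.11, and just missed the threshold (adjusted p = 0.0521, edgeR). IRF2 had 19.9 and 15.3 CPM at 8 h, against 19.9 and 26.4 CPM in DMSO, -0.40 ± 0.18 (adjusted p = 0.0873, edgeR). Without DMSO replicate 1 both were called, STAT5B at -0.38 (adjusted p = 0.0152, edgeR) and IRF2 at -0.59 (adjusted p = 0.0199, edgeR). IRF2 was also called with the GC trend removed (-0.50, adjusted p = 0.0383, edgeR).

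At 24 h the calls were STAT5A, STAT5B and STAT2, all lower than in DMSO, 3 of 8, where 43.1% of all tested genes were called, 22% higher and 21.1% lower. STAT5A had 253 and 255 CPM at 24 h, its lowest level of the drug arm, against 582 and 592 CPM in DMSO. The change was -1.21 ± 0.14 (adjusted p = 4.47e-06, edgeR). With the GC trend removed the change of STAT5A was -0.97 at 24 h and -1.27 at 72 h, each against DMSO. The time of its lowest level thus depends on that correction. STAT5B had 396 and 392 CPM at 24 h, against 532 and 611 CPM in DMSO, -0.54 ± 0.11 (adjusted p = 0.00124, edgeR), and STAT2 had 72.4 and 75.7 CPM at 24 h, against 117 and 107 CPM in DMSO, -0.60 ± 0.11 (adjusted p = 0.000416, edgeR). IRF1 was still at 17.3 and 19.3 CPM at 24 h, inside its DMSO range. IRF7 had 9.83 and 10.4 CPM at 24 h, 0.13 ± 0.18, and was called only with the GC trend removed (0.75, adjusted p = 0.00395, edgeR), with or without a replicate block.

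From 8 to 24 h, 5 of 8 genes were called, where 35.8% of all tested genes were, 18.4% higher and 17.4% lower. STAT5A (-1.08 ± 0.14) and STAT3 (-0.29 ± 0.11) were lower at 24 h, and IRF7 (0.89 ± 0.18), IRF9 (2.72 ± 0.47) and IRF2 (0.58 ± 0.18) higher. IRF9 had 45 and 60 counts at 24 h, against 7 and 12 counts at 8 h. The RNF31 gene beside IRF9 had 343 and 342 counts at 24 h, against 694 and 734 counts at 8 h, and the overlapping AL136295.5 had 25 and 38 counts at 24 h, against 8 and 19 counts at 8 h; the part of this overlap in the value of IRF9 was not tested. STAT3 was called in 5 of 12 alternatives of this comparison, and in none of the 4 that left out 1 library of 8 or 24 h. IRF2 was called in 9 of 12. IRF2 was not called without 24 h replicate 1 (adjusted p = 0.0551, edgeR), 24 h replicate 2 (adjusted p = 0.114, edgeR) or 8 h replicate 2 (adjusted p = 0.181, edgeR).

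From 24 to 72 h, 5 of 8 genes were called, where 45.9% of all tested genes were, 24.1% higher and 21.8% lower (4625 and 4193 genes, and 2540 and 4337 with the GC trend removed). IRF1 was 2.01 ± 0.18 higher on the log2 scale at 72 h (adjusted p = 5.54e-07, edgeR), and it had not been called against DMSO at 8 or 24 h. IRF7 (1.24 ± 0.18) and STAT2 (0.36 ± 0.11) were higher at 72 h too, and STAT3 (-0.41 ± 0.11) and STAT5B (-0.35 ± 0.11) lower. With the GC trend removed IRF7 differed by 0.09 between 72 and 24 h (adjusted p = 0.711, edgeR), so the time at which it rose depends on that correction. STAT2 kept its call in 5 of 12 alternatives, and in none of the 4 that left out 1 library of 24 or 72 h, STAT5B in 9 of 12 and STAT3 in 10 of 12. STAT3 and STAT5B were not called without 24 h replicate 1 (adjusted p = 0.0506 and 0.0963, edgeR) or 72 h replicate 1 (adjusted p = 0.0836 and 0.177, edgeR), and STAT5B was not called without 24 h replicate 2 (adjusted p = 0.0785, edgeR). STAT5A at 72 h was 0.31 ± 0.14 above 24 h (adjusted p = 0.0725, edgeR), while STAT5B was lower at 72 h than at 24 h. The STAT5A difference was called only without replicate 1 of both drugs at 72 h (0.45) or with only the groups compared (adjusted p = 0.0221, edgeR). With the GC trend removed it was -0.30 (adjusted p = 0.117, edgeR), beside -0.60 for STAT5B. The opposite signs of the pair thus depend on that correction.

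Among other IRF, STAT and IRF2-binding genes, the corepressor IRF2BP2 (0.85 ± 0.25) and STAT6, the IL-4 STAT (0.43 ± 0.14), were higher with both drugs at 72 h. In this and the following lists, a gene said to be higher or lower passed the edgeR threshold. With both drugs, 21.8% of all tested genes were higher and 21.2% lower at 8 h, 22% and 21.1% at 24 h, and 19.2% and 17.3% at 72 h. IRF3, the partner of IRF7, was lower at 8 h, with 33.4 and 37.8 CPM against 66.9 and 60.7 CPM in DMSO (-0.84 ± 0.11, adjusted p = 2.14e-05, edgeR).

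Upstream of the 9 genes, the interferons themselves were almost undetected. Of 11 interferon genes searched, 7 had no count in any drug library and 8 none in any excision library, and no value exceeded 0.160 CPM. More cytokine receptors were higher than lower with both drugs. Of 20 tested, 9 were higher and 4 lower at 8 h, 13 higher and 3 lower at 24 h and 12 higher and 2 lower at 72 h, with median log2 changes of 0.43, 1.18 and 0.63. Over all tested genes the medians were -0.01, -0.02 and 0.01, with 21.8%, 22% and 19.2% higher and 21.2%, 21.1% and 17.3% lower, so the receptors called lower at 8 h were about the share of all genes. IL6ST, the shared IL-6 family receptor, had 107 and 105 CPM with both drugs for 72 h, against 40.8 and 53.2 CPM in DMSO (1.18 ± 0.13). IFNGR2, a chain of the interferon gamma receptor, had 86.4 and 96.0 CPM with both drugs for 72 h, against 42.2 and 36.6 CPM in DMSO (1.21 ± 0.11). IFNAR1, a chain of the type I interferon receptor, was highest at 8 h, with 147 and 137 CPM against 56.4 and 64.7 CPM in DMSO (1.23 ± 0.11).

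Receptors also moved with GSK343 alone, 6 higher and 1 lower of 20, where 9.12% of all tested genes were higher. IL2RB, a chain of the IL-2 receptor, had 17.8 and 28.4 CPM with GSK343, against 1.12 and 1.04 CPM in DMSO (4.42 ± 0.30, adjusted p = 4.58e-07, edgeR). IL4R (1.62 ± 0.20) and LIFR (1.09 ± 0.14) followed. X5050 raised 4 of 20 and lowered none, where 5.34% of all tested genes were higher, among them IFNAR1 (0.38 ± 0.11) and IL6ST (0.43 ± 0.13). IL7R had no count in either DMSO library and reached 12.1 and 12.7 CPM at 24 h of both drugs.

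Of the 4 JAK kinases, JAK2, the kinase of the erythropoietin receptor, was lower with GSK343, at 51.1 and 48.9 CPM against 78.5 and 80.1 CPM in DMSO (-0.67 ± 0.11, adjusted p = 0.000775, edgeR). It was lower with both drugs for 72 h as well (-0.57 ± 0.11). JAK3, a kinase of lymphoid receptors, was higher in the same groups, by 1.79 ± 0.44 with GSK343 and 1.71 ± 0.44 with both drugs for 72 h, at a level of 0.454 to 2.73 CPM. TYK2, the kinase of the type I interferon receptor, was lower at 8 h (-0.78 ± 0.12) and 24 h (-0.56 ± 0.12) and higher at 72 h (0.32 ± 0.12), and JAK1 was higher at 8 h (0.48 ± 0.12) and 24 h (1.04 ± 0.12).

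Of 17 inhibitors of the pathway, 7 were higher and 5 lower at 8 h of both drugs, 12 higher and 2 lower at 24 h, and 7 higher and 2 lower at 72 h, where 21.8%, 22% and 19.2% of all tested genes were higher and 21.2%, 21.1% and 17.3% lower. The count lower at 8 h was near the share of all genes. CISH and SOCS2, inhibitors that are also STAT5 targets, were the clearest falls at 8 h. CISH had 17.0 and 19.3 CPM at 8 h, against 123 and 125 CPM in DMSO (-2.77 ± 0.22, adjusted p = 1.24e-06, edgeR), and SOCS2 had 62.4 and 57.4 CPM at 8 h, against 177 and 166 CPM in DMSO (-1.52 ± 0.23). The phosphatase gene PTPN2 was higher at 8 h (0.85 ± 0.12) and 24 h (0.99 ± 0.12). SOCS5 (1.09 ± 0.16), SOCS6 (1.13 ± 0.17) and PIAS1 (0.77 ± 0.15) led the rises at 72 h.

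Of 13 tested sensors and adaptors that activate IRF proteins, 4 were higher and 3 lower with both drugs at 8 h and again at 24 h (medians -0.05 and -0.07), and 5 were higher and 2 lower at 72 h (median 0.30). Over all tested genes 21.8%, 22% and 19.2% were higher and 21.2%, 21.1% and 17.3% lower at these times, so the sensors lower at 72 h and both counts at 8 and 24 h were not far from the shares of all genes. TICAM1, the adaptor of the double-stranded RNA receptor TLR3, had 41.1 and 52.9 CPM with both drugs, against 14.5 and 18.2 CPM in DMSO (1.52 ± 0.15). DDX58, the RNA sensor RIG-I, was higher by 1.41 ± 0.26 at 72 h and already by 1.59 ± 0.26 at 8 h. TMEM173, the adaptor STING, was lower at 8 h (-1.26 ± 0.18) and 24 h (-1.37 ± 0.18).

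STAT5 target genes gave mixed changes. Of 10 tested, 2 were higher and 4 lower at 8 h of both drugs, 4 higher and 3 lower at 24 h, and 2 higher and 5 lower at 72 h, with medians of -0.20, -0.01 and -0.40. Of all tested genes 43%, 43.1% and 36.4% were called at these times, 21.8%, 22% and 19.2% higher and 21.2%, 21.1% and 17.3% lower, so the 2 targets higher at 8 or 72 h were about the share of all genes. CISH, SOCS2, PIM1 and PIM2 fell at 8 h, when STAT5A had 486 and 584 CPM, against 582 and 592 CPM in DMSO. PIM2, a survival kinase, had 106 and 118 CPM at 8 h, against 225 and 234 CPM in DMSO (-1.04 ± 0.11), and remained called at 24 h (-1.16 ± 0.11) and 72 h (-0.54 ± 0.11). SOCS2 was instead above DMSO at 24 h (0.89), when STAT5A RNA was lowest in CPM. A link of these target genes to STAT5 RNA was not tested. CCND1, the cyclin D1 gene, went the other way from the falls at every time: it had 28.2 and 30.999 CPM at 8 h, against 5.37 and 4.96 CPM in DMSO (2.52 ± 0.19), and was also higher with GSK343 (2.84 ± 0.19) and X5050 (2.11 ± 0.19).

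**Figure D3:**
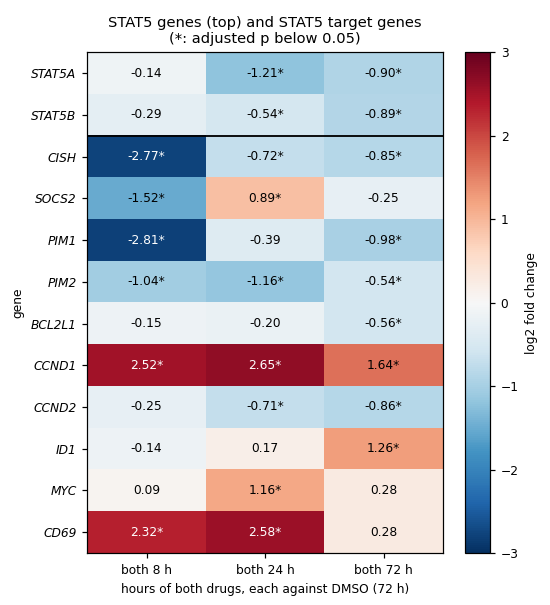
Log2 fold changes (colour and printed value) of STAT5A and STAT5B (top rows) and 10 STAT5 target genes at 8, 24 and 72 h of both drugs, each against DMSO at 72 h; an asterisk marks an adjusted p under 0.05 (edgeR). Without a GC correction, CISH (-2.77) and PIM1 (-2.81) were lowest at 8 h and STAT5A (-1.21) at 24 h. CCND1 was above DMSO throughout.

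Most STAT3 target genes were higher at 24 and 72 h of both drugs. Of 12 tested, 5 were higher and 2 lower at 8 h (median -0.25), 8 higher and 1 lower at 24 h (median 1.14), and 9 higher and 1 lower at 72 h (median 1.58), where 21.8%, 22% and 19.2% of all tested genes were higher and 21.2%, 21.1% and 17.3% lower. STAT3 itself was not called at 8 h (0.21) or 24 h (-0.08) and was lower at 72 h (-0.50). MCL1, a survival gene of the BCL2 family, had 877 and 1016 CPM with both drugs for 72 h, against 238 and 205 CPM in DMSO (2.10 ± 0.13). TIMP1, an inhibitor of matrix proteases, had 258 and 238 CPM with both drugs, against 43.9 and 55.8 CPM in DMSO (2.31 ± 0.14), and JUNB had 264 and 365 CPM, against 61.9 and 43.2 CPM in DMSO (2.58 ± 0.19). These 3 were also higher with GSK343 (MCL1 0.86, TIMP1 1.02, JUNB 1.17) and with X5050 (MCL1 1.54, TIMP1 1.78, JUNB 0.75). BIRC5, the mitotic survival gene, was the 1 that fell at 72 h (-0.64).

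Interferon target genes were more often called lower than higher at 8 h, and split at 72 h. Of 29 tested, 6 were higher and 15 lower at 8 h of both drugs (median -0.75), 8 higher and 11 lower at 24 h (median -0.30), and 9 higher and 4 lower at 72 h (median 0.19). Of all tested genes 21.8%, 22% and 19.2% were higher and 21.2%, 21.1% and 17.3% lower, so the counts higher at 8 h and lower at 72 h were near the shares of all genes. UBE2L6, an enzyme of ISG15 conjugation, had 9.40 and 9.59 CPM at 8 h, against 30.6 and 40.1 CPM in DMSO (-1.90 ± 0.19), and BST2, the surface protein tetherin, fell by 1.73 on the log2 scale (SE 0.18). PSMB8 (-2.47 ± 0.33), a subunit of the immunoproteasome, had 0.557 and 0.459 CPM at 8 h, against 2.77 and 2.88 CPM in DMSO. At 72 h GBP2, a GTPase that is also a target of IRF1, had 34.0 and 36.2 CPM with both drugs, against 2.11 and 2.40 CPM in DMSO (3.96 ± 0.25, adjusted p = 9.62e-09, edgeR). GBP2 was not called at 24 h (0.13), when IRF1 had 17.3 and 19.3 CPM. A link of GBP2 to the level of IRF1 was not tested. With X5050 6 were higher and 6 lower, where 5.34% of all tested genes were higher and 7.23% lower, among them OAS3 (-1.33 ± 0.15) and IFITM3 (1.14 ± 0.14), both antiviral genes. With GSK343 4 were higher and 2 lower, where 9.12% of all tested genes were higher and 3.31% lower, led by MX2, an antiviral GTPase (2.44 ± 0.41), and EIF2AK2, the kinase PKR (-0.44 ± 0.11).

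Cell markers moved in the same libraries. The summed level of the 12 K562 and erythroid markers was 4785 and 6094 CPM with both drugs for 72 h, against 2413 and 2583 CPM in DMSO. Its members did not move together: 6 were higher and 5 lower, with a median of 0.26. The summed level of 9 fibroblast and epithelial markers was 916 and 1005 CPM with both drugs for 72 h, against 486 and 522 CPM in DMSO, with 3 of 6 tested higher and 1 lower. The summed level of 9 lymphoid markers was 42.2 and 51.4 CPM with both drugs for 72 h, against 114 and 134 CPM in DMSO, and that of 10 myeloid markers 16.1 and 16.5 CPM, against 17.7 and 22.2 CPM in DMSO. Of 6 myeloid markers tested 3 were higher and 1 lower, and of 5 lymphoid markers 1 was higher and 2 lower. The part of these shifts in the changes of the IRF and STAT genes was not tested.

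For each of the 8 tested genes the gene most alike in log2 CPM over the 12 drug libraries was sought among 10738 protein-coding genes outside the lists. Libraries of a group share their treatment, and all share the normalization, so the correlations are given as descriptions. NUAK2 was most like IRF1 (Pearson r = 0.953), with 18.4 and 16.5 CPM at 72 h of both drugs, against 1.57 and 2.12 CPM in DMSO. CDKN1C was most like IRF7 (r = 0.966), with 89.8 and 79.1 CPM at 72 h of both drugs, against 20.4 and 30.3 CPM in DMSO. WDR34 was most like STAT5A (r = 0.965) and CUEDC2 most like STAT5B (r = 0.966), so the most alike genes of the STAT5 pair differed. MAST4 was most like STAT3 (r = 0.964), C16orf58 most like STAT2 (r = 0.975), SEC24A most like IRF2 (r = 0.950) and HYPK most like IRF9 (r = 0.976).

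The main fit of the excision arm used no replicate block. In that fit none of the 8 genes was called in DKO, S1KO or S2KO cells against EV, where 8.76%, 3.67% and 2.01% of all tested genes were called. In DKO cells 5.41% were higher and 3.35% lower, in S1KO cells 2.44% higher and 1.23% lower, and in S2KO cells 1.45% higher and 0.554% lower. An unadjusted p under 0.05 was reached by 1 gene, STAT5B, in DKO cells and by none in S1KO or S2KO cells. The spread between libraries was wider than in the drug arm, with a biological coefficient of variation of 0.323 against 0.129. It differed between groups. The mean chi-square per degree of freedom over genes, which also grows with depth, was 14.7 in DKO cells. It was 190 in S1KO, 313 in S2KO and 328 in EV cells, so DKO and EV cells differed in replicate spread as well as in genotype. Part of that spread was shared: in EV, S1KO and S2KO cells the deviations of replicate 2 from replicate 1 over all tested genes correlated with r of 0.488 to 0.622, while DKO libraries correlated with them at -0.0843 to -0.0591. The labels give no reason for it. With a replicate block and no DKO libraries, an alternative added after the data were seen, 3185 genes were called in S1KO cells and 1881 in S2KO cells. With no DKO libraries and no block 358 and 161 were called, and in the main fit, which holds the DKO libraries, 781 and 427.

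Among the IRF and STAT genes that shared pattern was plain. Of the 8 tested genes 7 were higher in replicate 2 than in replicate 1 of EV, S1KO and S2KO cells, by the least in STAT3 (1.03 to 1.16 times), and STAT5A was lower. In EV cells replicate 2 held 1.72 times the STAT5B level of replicate 1 but 0.579 times its STAT5A level. In DKO cells the ratios were 0.907 for STAT5B and 0.925 for STAT5A.

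STAT5B had 212 and 192 CPM in DKO cells, against 368 and 632 CPM in EV cells. In S1KO cells it had 296 and 395 CPM and in S2KO cells 315 and 527 CPM, so the DKO libraries were the lowest of the arm and did not overlap any other group. The change in DKO cells was -1.31 ± 0.34, with an adjusted p of 0.0655 in edgeR. It was called by DESeq2 (-1.33, adjusted p = 0.00484) and with a replicate block (-1.24, adjusted p = 0.0153, edgeR). It was also called with the GC trend removed (-1.47, adjusted p = 0.0247, edgeR, with an all-gene median of -0.12). Without EV replicate 1, the lower of the 2 EV libraries, it was -1.67 and called. RLE size factors, no filter, length-scaled counts, only the groups compared and leaving out any other DKO or EV library gave no call. In S1KO cells the change was -0.53 ± 0.34 (adjusted p = 0.558, edgeR) and in S2KO cells -0.25 ± 0.34 (adjusted p = 0.929, edgeR). Replicate by replicate, STAT5B was lower than in EV in both S1KO and both S2KO libraries. The fit with a replicate block and no DKO libraries called it in S1KO cells (-0.52, adjusted p = 0.0212, edgeR) and not in S2KO cells (-0.27, adjusted p = 0.252, edgeR).

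**Figure D4:**
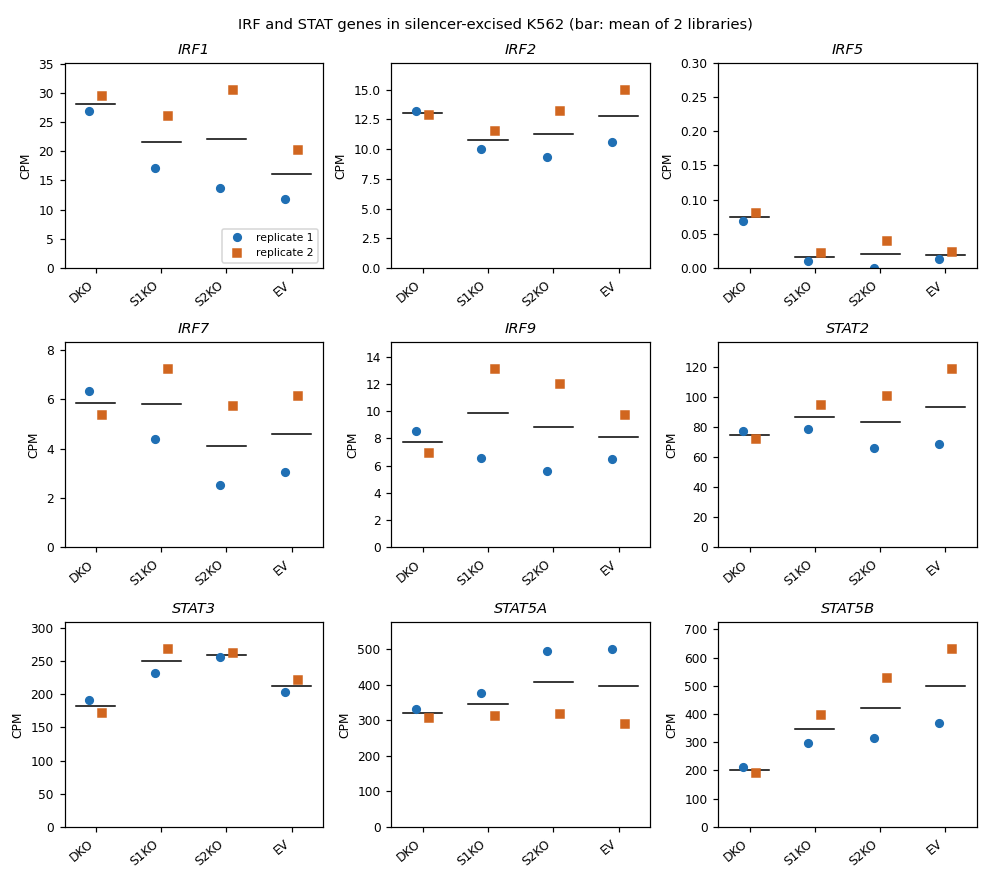
Levels of the 9 genes in CPM (y axes, each from 0) in DKO, S1KO, S2KO and EV cells; points are single libraries, marked by replicate number, and bars the mean of 2. STAT5B lay at 212 and 192 CPM in DKO cells and at 368 and 632 CPM in EV cells, and replicate 2 lies above replicate 1 in EV, S1KO and S2KO cells for every gene but STAT5A.

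STAT5A had 332 and 307 CPM in DKO cells, 377 and 313 CPM in S1KO cells and 496 and 318 CPM in S2KO cells, against 502 and 290 CPM in EV cells, with every excised group inside the EV range. STAT3 had 191 and 172 CPM in DKO cells, 232 and 269 CPM in S1KO cells and 256 and 263 CPM in S2KO cells, against 203 and 222 CPM in EV cells. Its CPM were thus above EV in both single excisions and below EV in DKO cells, but in TPM, which the authors scaled by transcript length, STAT3 had 45.5 and 41.5 in DKO cells, against 42.4 and 40.8 in EV cells, so the direction in DKO cells turns with the unit. The interaction of the excisions on the counts was -0.75 ± 0.20, not called by edgeR (adjusted p = 0.226) and called by DESeq2 (-0.76, adjusted p = 0.0464). Across all tested genes 1.04% had a called interaction, 0.319% above and 0.724% below the sum of the single excisions, and edgeR called it for none of the 8, with STAT3 the 1 gene at an unadjusted p under 0.05.

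IRF1 had 26.8 and 29.5 CPM in DKO cells, 17.2 and 26.0 CPM in S1KO cells and 13.8 and 30.5 CPM in S2KO cells, against 11.8 and 20.3 CPM in EV cells. The DKO libraries lay above both EV libraries, yet the change of 0.81 ± 0.43 was not called (adjusted p = 0.315, edgeR). Replicate by replicate, IRF1 was higher than in EV in both S1KO and both S2KO libraries, and the fit with a replicate block and no DKO libraries did not call it in S1KO cells (0.43, adjusted p = 0.106, edgeR) or S2KO cells (0.39, adjusted p = 0.19, edgeR). IRF2, IRF7, IRF9 and STAT2 had log2 fold changes of -0.33 to 0.35 in DKO cells. Their DKO libraries lay inside the range of the EV libraries, except replicate 1 of IRF7, which had 6.35 CPM in DKO cells, against 3.07 and 6.14 CPM in EV cells.

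Of 31 interferon target genes tested, 10 were higher in DKO cells and none lower, where 5.41% of all tested genes were higher (1152 higher and 713 lower in number, and 1053 higher and 1224 lower with the GC trend removed), with a median of 0.84 against 0.01 over all genes. IFIT3, an antiviral gene of the ISGF3 response, had 7.001 and 6.64 CPM in DKO cells, against 0.139 and 0.418 CPM in EV cells (4.60 ± 0.55, adjusted p = 0.00449, edgeR). PSMB8 had 1.78 and 1.32 CPM in DKO cells, against 0.0632 and 0.0836 CPM in EV cells (4.37 ± 0.49, adjusted p = 0.00341, edgeR). IFIT2 had 1.61 and 1.29 CPM in DKO cells, against 0 and 0.0119 CPM in EV cells. In S1KO cells 4 of 31 were higher, IFIT2, IFIT3, PSMB8 and PSMB9, where 2.44% of all tested genes were. In S2KO cells PSMB8 was higher and IFITM3 lower.

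Of 17 tested sensors and adaptors, IFIH1, the RNA sensor MDA5, was higher in DKO cells, at 25.6 and 24.4 CPM against 0.278 and 2.07 CPM in EV cells (4.41 ± 0.91, adjusted p = 0.0316, edgeR), and TMEM173 was lower (-1.25 ± 0.18), where 5.41% of all tested genes were higher and 3.35% lower. Of 23 receptors, LIFR (2.75 ± 0.43) and IL2RG (2.54 ± 0.47) were higher and IFNGR1 (-1.01 ± 0.17) lower in DKO cells. These counts were near the shares of all genes. Of 11 STAT5 targets 1 was called in DKO cells, about the 8.76% of all tested genes called, PIM2, at 143 and 148 CPM against 71.3 and 50.5 CPM in EV cells (1.26 ± 0.21), above EV where STAT5B was below it. STAT6 was lower in DKO cells (-0.74 ± 0.16), as was the inhibitor SOCS3 (-1.24 ± 0.22). The summed level of the 12 K562 and erythroid markers was 17224 and 20093 CPM in DKO cells, against 2840 and 6501 CPM in EV cells, with 2 of 12 called higher and none lower. The summed level of 9 lymphoid markers was 58.4 and 64.8 CPM in DKO cells, against 106 and 141 CPM in EV cells, that of 9 fibroblast and epithelial markers 683 and 717 CPM, against 517 and 602 CPM in EV cells, and that of 10 myeloid markers 70.2 and 82.9 CPM, against 51.5 and 59.1 CPM in EV cells. The part of these shifts in the values above was not tested.

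At the level of transcripts, STAT5B-201 carried most of STAT5B, with 27.6 and 26.3 TPM in DKO cells, 39.5 and 54.0 TPM in S1KO cells and 39.8 and 65.9 TPM in S2KO cells, against 46.4 and 77.0 TPM in EV cells. Its order of groups was that of the gene. STAT3-201, the leading coding transcript of STAT3, had 19.6 and 18.0 TPM in DKO cells, 22.4 and 26.4 TPM in S1KO cells and 24.7 and 25.0 TPM in S2KO cells, against 17.1 and 17.8 TPM in EV cells. STAT3-204, annotated as a retained intron, had 10.9 and 9.65 TPM in DKO cells, 16.2 and 13.6 TPM in S1KO cells and 20.2 and 12.7 TPM in S2KO cells, against 4.86 and 1.90 TPM in EV cells. All 6 excised libraries lay above both EV libraries for STAT3-204. These transcript values come from the division of shared reads between transcripts by the authors' quantification and were not tested.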

How the data were processed

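Total RNA of K562 cells was sequenced from stranded libraries with ribosomal RNA removed, per the labels' protocols. For the drug arm the authors deposited gene counts, and for the excision arm kallisto tables with estimated counts and TPM per transcript. The submitters' processing notes give the build hg19 and name kallisto 0.44.0, STAR 2.7.3a and Trimmomatic 0.38. The annotation release is not given in the sources used here. Drug counts are those of the reverse strand column, which held 8.01 to 9.77 times the forward column. Estimated counts were summed per gene through GENCODE 29, which held 84.7% of the transcript identifiers and 87.8% to 90.4% of the estimated counts, and rounded to whole numbers. Reads in no gene (19.8% to 27.0% of the drug totals with them) and ambiguous reads (2.38% to 3.72%) stayed out of library sizes.

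Each arm was fitted alone, one mean per group over all its libraries, with the robust quasi-likelihood test of edgeR 4.0.16 under R 4.3.3, after filterByExpr and with TMM factors. The Benjamini-Hochberg adjustment ran over every gene tested, with a threshold of 0.05. Standard errors are approximate, being the size of the log2 fold change divided by the root of the F statistic. CPM use TMM library sizes. With 2 libraries a group, p values rest on the variance model, on 6 (drugs) and 4 (excisions) residual degrees of freedom. The same fit and test steps were also run on simulated counts, with means and spread taken from the real fits. The outcome is not reported here.

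The 9 genes and all lists were chosen with earlier results of these data known. All 9 genes are named, from each list up to 3 called genes with the lowest p in each comparison with a control, and genes of a list named beside them were chosen after their values were seen. SOCS7 was not matched. Some other genes of the IRF and STAT families are not reported here, nor is the count of that list. Of the promoter, GC and overlap data, promoters come from RefSeq (GRCh38.p14) and the others from GENCODE 29, and no coordinates of the hg19 files were used. GC content was known for 96.2% of tested drug-arm genes. The alternatives tried were a replicate block, no filter on low counts, RLE size factors, DESeq2 1.42.0, removal of the GC trend (loess, span 0.3), unstranded or length-scaled counts, only the groups compared, no DKO libraries, and each library left out.

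Samples with the same replicate number were compared by the correlation of their deviations from the group means. In the drug arm 4 of 15 pairs of groups exceeded 0.1 (range -0.0546 to 0.233), and in the excision arm 3 of 6 (-0.0843 to 0.622), the last being every pair among EV, S1KO and S2KO, whose numbers thus varied together, while no pair with DKO did. The main fits of both arms used no block. In the excision arm this left the shared deviation of EV, S1KO and S2KO in the spread. Blocked values of the excision arm, also without DKO, stand beside the results they change.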

Additional observations from a re-analysis of the deposited data

Results flagged for a closer look

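For 6 of the 8 tested genes the effect of one drug differed with the presence of the other at 72 h, by a test of the interaction in edgeR. The excess of both drugs over the sum of the single drugs, on the log2 scale, was 1.79 for IRF7, 1.60 for IRF1 and 1.06 for IRF2. It was -1.20 for STAT5A, -0.73 for STAT3 and -0.60 for STAT5B. The interactions of IRF1, IRF7, STAT3 and STAT5A were called under all 16 alternatives, that of IRF2 under 15 and that of STAT5B under 14.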

How the results depend on the processing

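Of 40 called results on single genes 25 kept their call under every alternative run, and none changed direction in any of the 504 alternative values. For both drugs against DMSO the 5 calls at 72 h and the 3 at 24 h kept their calls throughout. With GSK343 the 2 called genes became 1 with RLE size factors, with no filter, with a replicate block and with unstranded counts, 0 with only the groups compared, and 0 to 3 with 1 library left out. With X5050 the count of 0 became 1 with no filter and with DESeq2, and 0 to 1 with 1 library left out. The 3 calls at 8 h ran between 1 and 4 with 1 library left out. The 5 calls between 24 and 8 h ran between 3 and 4, and the 5 between 72 and 24 h between 2 and 4, and 3 with the GC trend removed, with or without a replicate block. In DKO cells the count of 0 became 1, STAT5B, with a replicate block, with the GC trend removed, with both, and with DESeq2, and 0 to 1 with 1 library left out. In S1KO cells a replicate block without the DKO libraries gave 1, and DESeq2 gave 1 for the excision interaction. The replicate block changed 2 other calls, STAT3 with GSK343 (adjusted p = 0.0517, edgeR) and IRF2 for both drugs against X5050 (adjusted p = 0.0424, edgeR); in the drug arm same-numbered samples share only a number. The causes were not tested.

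Counts over all genes ran further: 739 to 4287 for GSK343 (2390 reported), 617 to 3121 for X5050 (2415), 4178 to 9623 for 24 against 8 h (6880), 3597 to 6531 for both drugs against X5050 (5816), 2296 to 4854 for the drug interaction (3613), 249 to 3185 for S1KO (781), 0 to 1881 for S2KO (427), 526 to 3712 for DKO (1865) and 33 to 781 for the excision interaction (222). IRF5 was too low to test in the main analysis, and with no filter or unstranded counts no comparison called it. IRF9 rests on 7 to 60 counts a drug library.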
